A study of Mus musculus with 22 samples.

Results

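This report describes 10 mouse genes for scavenger and C-type lectin receptors, chosen by symbol from the 15725 genes of the series: Marco, Msr1, Mrc1, Cd163, Stab1, Scarb1, Olr1, Clec4d, Clec4e and Clec4n. All 10 were found in the expression table, and 8 passed the filter on low values. Cd163 and Olr1 did not pass. Their levels were read in 22 RNA sequencing libraries of primary microglia, the resident macrophages of the brain, grown from the cortex of newborn C57BL/6J mice 1 to 3 days old and shaken off mixed glia. Every culture received LPS, a bacterial cell wall component, at 100 ng/ml for 24 h, so no group shows these receptors without LPS. The groups were LPS+CLA (CLA at 50 nM, n = 6), LPS+Baf A1 (bafilomycin A1 at 10 nM, n = 5), LPS+siAtg5 (an siRNA to Atg5 at 50 nM for 48 h before LPS, n = 5), LPS+dNC (the comparator of LPS+siAtg5, n = 3) and LPS alone (n = 3). The labels spell out neither CLA nor dNC and give no dose for dNC; their protocol mentions control siRNAs. Bafilomycin A1 blocks the vacuolar proton pump, and Atg5 is needed to build autophagosomes. The series title places the comparisons in a study of autophagy in microglia. The labels do not tie replicates to separate animals or cultures, and p-values measure only a spread between libraries that may be technical.

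Scavenger receptors bind modified lipoproteins, bacteria, dying cells and other polyanionic material and carry it into the endosomes of macrophages. C-type lectin receptors read sugars and glycolipids on microbes and damaged cells. Of the members, Clec4n (Dectin-2), Clec4e (Mincle) and Clec4d (MCL, also called Dectin-3) form the activating arm: they pair with the Fc receptor gamma chain, the product of Fcer1g, and signal through Syk and Card9. The other members act mainly in uptake. Marco and Msr1 are class A scavenger receptors, Mrc1 is the mannose receptor CD206, Cd163 takes up haemoglobin bound to haptoglobin, and Stab1 is the scavenger receptor stabilin-1. Scarb1 is the HDL receptor SR-BI, and Olr1 (LOX-1) binds oxidised LDL.

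The 3 activating lectin genes are neighbours on chromosome 6. In the GENCODE vM21 annotation of GRCm38, Clec4n lies at chr6:123229843-123247021 and Clec4d at chr6:123262111-123275265, both on the plus strand. Clec4e lies at chr6:123281789-123289870 on the minus strand. No source used here gives the submitters' build, so these positions serve as annotation only. The promoters of Clec4e and Clec4d are printed because these neighbours differed in how they changed between groups, and that of Marco because its level differed 4.28-fold between group means. Each spans 250 bases before to 50 after the start site in RefSeq (GRCm38.p6), which listed 7 of the 10 members. Clec4e is chr6:123289822-123290121 (minus strand), Clec4d is chr6:123261857-123262156 (plus strand) and Marco is chr1:120504975-120505274 (minus strand). Capitals mark matches, on either strand, to any of 6 patterns.
Clec4e: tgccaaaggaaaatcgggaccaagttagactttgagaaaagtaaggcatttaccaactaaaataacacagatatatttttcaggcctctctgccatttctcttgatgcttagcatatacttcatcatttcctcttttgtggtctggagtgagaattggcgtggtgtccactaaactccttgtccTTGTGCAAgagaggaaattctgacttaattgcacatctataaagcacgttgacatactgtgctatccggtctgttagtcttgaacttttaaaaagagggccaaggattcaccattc
Clec4d: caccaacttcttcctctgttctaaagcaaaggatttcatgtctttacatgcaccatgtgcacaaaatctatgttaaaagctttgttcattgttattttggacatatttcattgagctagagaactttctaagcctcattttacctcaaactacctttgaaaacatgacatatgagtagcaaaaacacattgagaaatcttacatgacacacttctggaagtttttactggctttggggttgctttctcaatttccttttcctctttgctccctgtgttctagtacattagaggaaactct
Marco: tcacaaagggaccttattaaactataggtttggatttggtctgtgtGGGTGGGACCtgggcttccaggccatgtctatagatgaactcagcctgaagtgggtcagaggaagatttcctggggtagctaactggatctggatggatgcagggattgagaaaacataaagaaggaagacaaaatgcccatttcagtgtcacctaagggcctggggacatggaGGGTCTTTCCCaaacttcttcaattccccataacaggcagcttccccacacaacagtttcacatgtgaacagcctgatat
The Clec4e window held 1 match to the C/EBP pattern TTGCNNAA, TTGTGCAA at position -66 from the start site, read on the reverse strand; 10.8% of 32851 RefSeq promoters held this pattern. The Clec4d window held no match to any pattern. The Marco window held 3 matches to a loose NF-kB pattern, at -204, -30 and -29, of which the last pair overlap; 50.8% of promoters held it. The AP-1 pattern TGANTCA (7.8% of promoters), the STAT pattern TTCNNNGAA (8.3%), the E-box CACGTG (7.2%) and the nuclear receptor motif AGGTCA (16.3%) had no match in the 3 windows. A match is a description of letters only.

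The values are FPKM, fragments scaled by gene length and by the library's mapped fragments, so levels can be compared between genes. The members fell at broadly different levels. Marco, Msr1, Clec4d and Clec4e stood between the 97.9 and 99.8 percentile of all genes in every group. Stab1 and Clec4n ranged from the 81.2 to the 97.9 percentile, and Scarb1 and Mrc1 from the 43.1 to the 79.9 percentile. Cd163 and Olr1 were near 0, with group means of at most 0.028 FPKM for Cd163 and at most 0.588 FPKM for Olr1. The ratio of the highest to the lowest group mean was 9.46 for Clec4n, 8.58 for Mrc1, 5.13 for Scarb1, 4.35 for Clec4e, 4.28 for Marco and 3.17 for Stab1. It was 1.96 for Clec4d and 1.52 for Msr1.

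**Figure D1:**
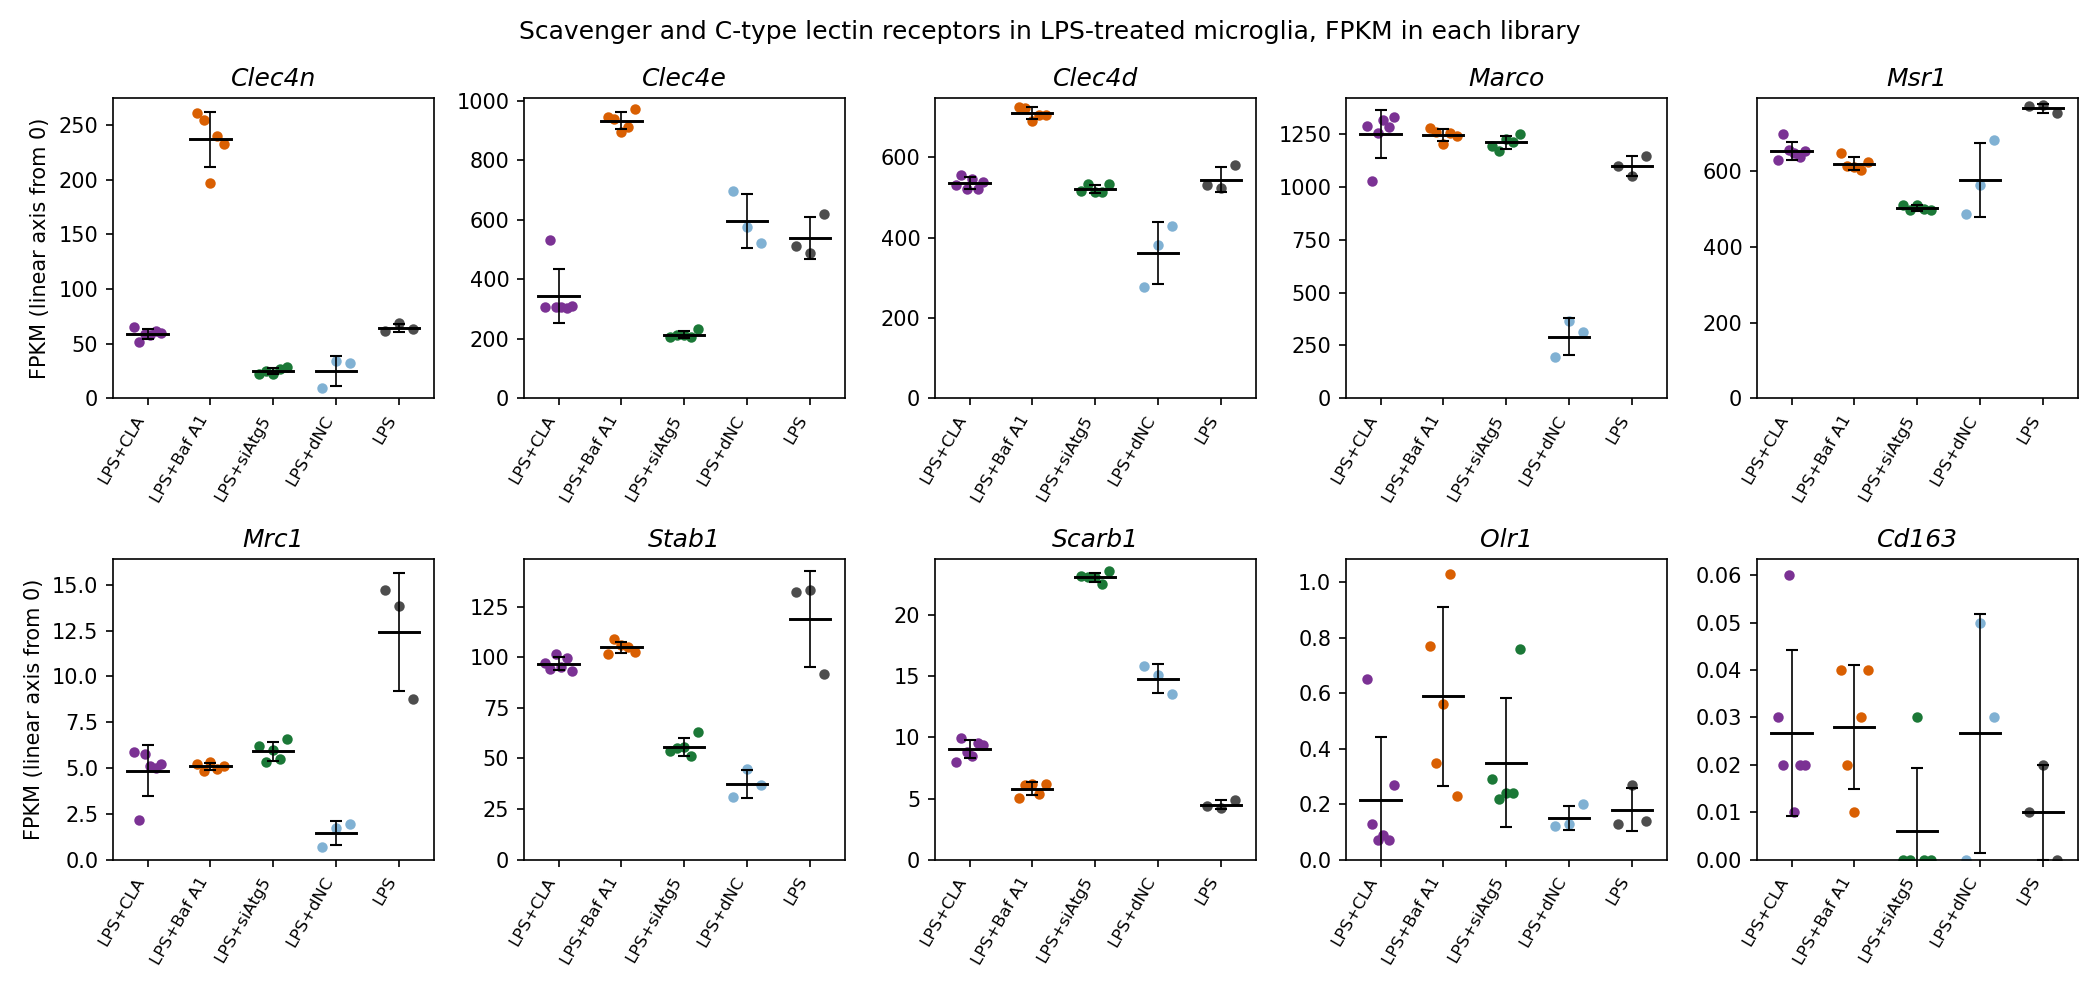
FPKM of the 10 members (one panel each, linear axes from 0) in the 22 libraries, with groups along the horizontal axis; each point is a library and the black line and bar give the group mean and SD. Clec4n, Clec4e and Clec4d peak in LPS+Baf A1, Scarb1 peaks in LPS+siAtg5 at a mean of 23.1 FPKM, and Marco and Mrc1 are lowest in LPS+dNC.

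The libraries differed in ways that touch these comparisons. Atg5 had 12.6 to 13.5 FPKM in the 5 LPS+siAtg5 libraries and 21.4 to 24.3 FPKM in the 3 of LPS+dNC, a log2 difference of -0.73 (limma, Benjamini-Hochberg adjusted p = 4.05e-12), so the targeted transcript was lower under its label. Microglial genes were abundant in every group (Csf1r, Itgam, Aif1 and C1qa to C1qc), while the homeostatic markers P2ry12 and Tmem119 had means of 1.77 to 8.49 FPKM and Gpr34 stayed below 1 FPKM. Csf1r averaged 153 FPKM in LPS+dNC, 869 FPKM in LPS and 443 FPKM in LPS+siAtg5. Cx3cr1 averaged 0.18, 7.79 and 13.9 FPKM in the same groups. Of 13 tested microglia markers, 3 were called higher and 7 lower in LPS+dNC than in LPS, where 29% and 28.1% of all genes were. In LPS+siAtg5 against LPS+dNC, 11 of them were called higher and 2 lower, where 59.6% and 21.6% of all genes were. Sall1, among those 11, averaged 3.53 FPKM in LPS+siAtg5 and below 1 FPKM in every other group. Sall1 passed the filter only through LPS+siAtg5, so its call carries no weight. The summed level of 14 microglia markers was 4945 to 5220 FPKM in LPS+CLA, 3870.3 to 4070 FPKM in LPS+Baf A1, 4140.2 to 4384 FPKM in LPS+siAtg5, 2894 to 3312 FPKM in LPS+dNC and 4498 to 4616 FPKM in LPS. A list of 12 astrocyte markers summed to 336 to 393 FPKM in LPS+siAtg5, against 5.63 to 20.7 FPKM in the other groups, with Gjb6 at 0 in LPS+dNC and LPS. Neuron markers summed to 53.8 to 67.3 FPKM in LPS+siAtg5, against at most 16.1 FPKM elsewhere. The 10 fibroblast, mural and endothelial markers summed to 93.8 to 126 FPKM in LPS+siAtg5, against at most 30.7 FPKM elsewhere, with Rgs5 at 0 in the other 4 groups. The 9 oligodendrocyte lineage markers summed to 33.7 to 36.9 FPKM in LPS+siAtg5, against at most 18.2 FPKM elsewhere. The LPS+siAtg5 libraries also had a median of 4.53 to 4.8 FPKM over genes, against 2.62 to 3.25 FPKM in the other 17. In LPS+dNC, S100a8 averaged 357 FPKM, against at most 27.9 FPKM in any other group. LPS replicate 3, LPS+dNC replicate 1 and LPS+CLA replicate 2 stood apart from their groups. The part of these differences in the results below was not tested, and in bulk RNA fewer cells of a type and less RNA per cell cannot be told apart.

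Against LPS alone, the 3 activating lectins were higher and Mrc1 and Msr1 lower in LPS+Baf A1. Of the 8 members tested, 4 were called higher (Clec4n, Clec4e, Clec4d and Scarb1), where 32.7% of all 11070 genes tested were, and 2 were called lower (Mrc1 and Msr1), where 25.1% were. The median log2 difference was 0.24 over the members and 0.04 over all genes. The ranges of the 2 groups did not overlap for 7 members, Stab1 being the exception, and for 52.7% of all genes tested.

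Between LPS+siAtg5 and LPS+dNC, 5 members were called higher (Marco, Mrc1, Scarb1, Stab1 and Clec4d), where 59.6% of all genes were, and 2 were called lower (Clec4e and Msr1), where 21.6% were. The median log2 difference was 0.56 over the members and 0.34 over all genes. Of all genes called in this comparison, 73.4% were higher as deposited, 54.1% after median-of-ratios scaling and 49.1% after quantile normalization. The ranges did not overlap for 6 of the 8 members and for 77% of all genes, so the members' share was near that of all genes.

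Between LPS+CLA and LPS, Scarb1 was the 1 member called higher, where 40.4% of all genes were, and 4 were called lower (Mrc1, Clec4e, Stab1 and Msr1), where 22.6% were. The median log2 difference was -0.18 over the members and 0.09 over all genes. The called genes that were higher made up 64.1% as deposited, 49.4% after median-of-ratios scaling and 54.0% after quantile normalization. The ranges did not overlap for 3 of the 8 members, Scarb1, Mrc1 and Msr1, and for 51.6% of all genes.

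LPS+dNC itself differed widely from LPS alone. Between LPS+dNC and LPS, Scarb1 was called higher, where 29% of all genes were, and 6 members were called lower, where 28.1% were; the median log2 difference was -1.06 over the members and 0.00 over all genes. The ranges did not overlap for 7 of the 8 members and for 53.6% of all genes. Between LPS+siAtg5 and LPS, Scarb1 was called higher, where 61.2% of all genes were, and 5 members were called lower, where 15.6% were. The medians were -0.77 over the members and 0.31 over all genes, and the ranges did not overlap for 7 members and for 70.7% of all genes. In this comparison 79.7% of called genes were higher as deposited, 50.8% after median-of-ratios scaling and 47.4% after quantile normalization. These comparisons share control libraries with those above. Between LPS+CLA and LPS+Baf A1, Scarb1 was called higher, where 35.4% of all genes were, and Clec4n, Clec4e and Clec4d were called lower, where 19% were. The ranges did not overlap for 4 members and for 39.5% of all genes. Of the called genes 65.1% were higher, 51.1% after median-of-ratios scaling and 54.5% after quantile normalization.

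**Figure D2:**
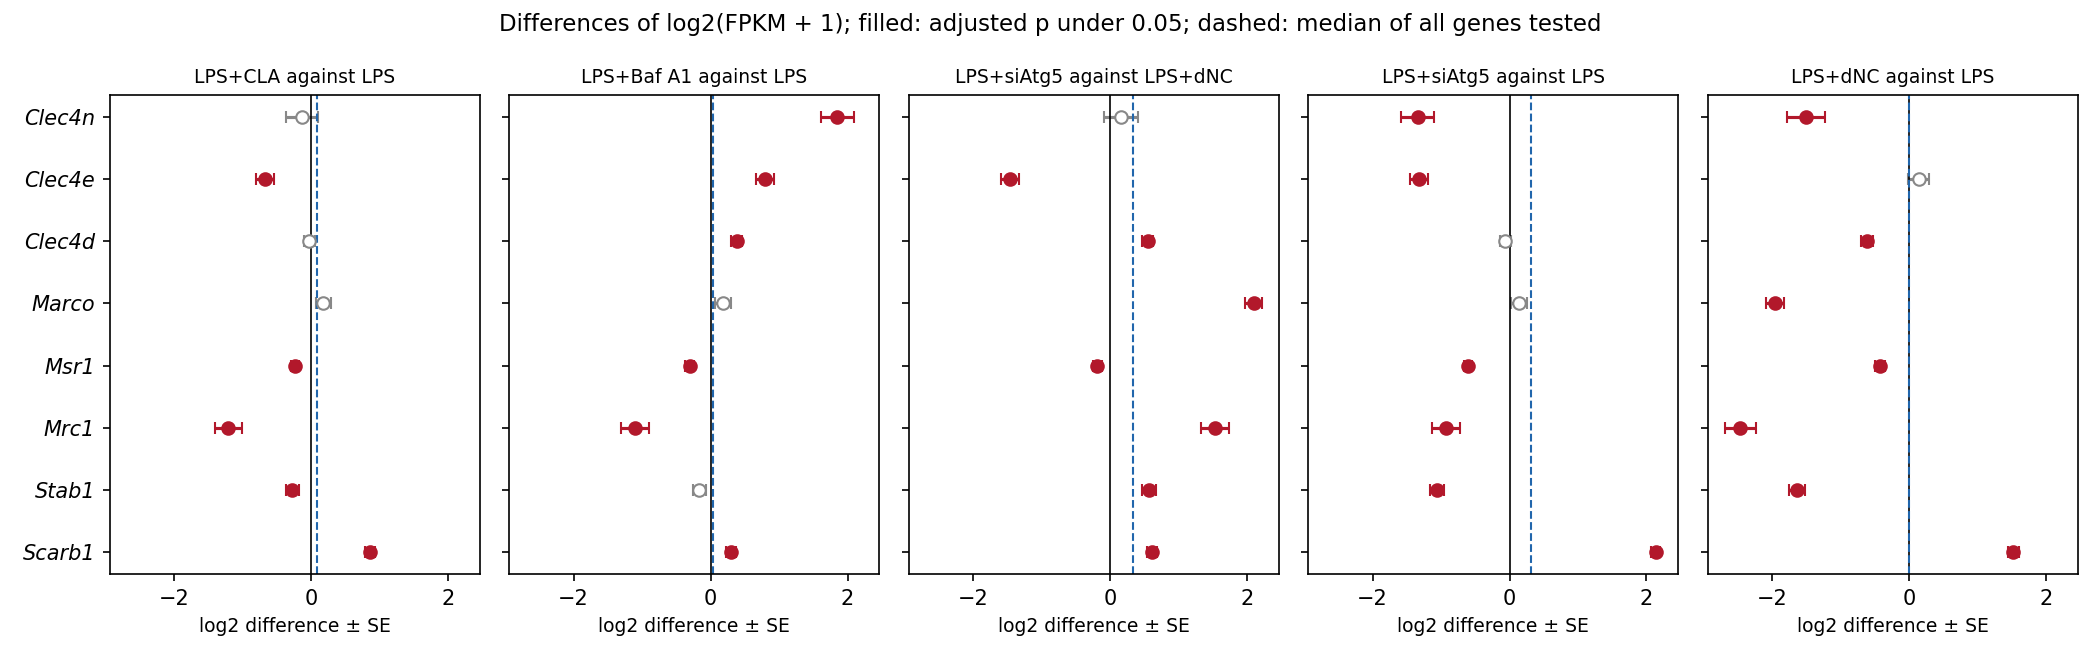
Differences of log2(FPKM + 1) with their standard errors for the 8 tested members (rows) in 5 comparisons (panels); filled red points have an adjusted p under 0.05 (limma), open grey points do not, and the dashed blue line is the median over all genes tested. Clec4n is 1.85 higher in LPS+Baf A1 than in LPS, Clec4e is 1.46 lower in LPS+siAtg5 than in LPS+dNC, and Scarb1 lies to the right of 0 in every panel.

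Clec4n, the gene for Dectin-2, a receptor for fungal mannans, varied most. It had 261, 255, 197, 239.7 and 232 FPKM in the LPS+Baf A1 libraries, against 61.9, 68.9 and 63.4 FPKM in the LPS libraries. All 5 LPS+Baf A1 libraries lay far above all 3 LPS libraries, a ratio of means of 3.66 and a log2 difference of 1.85 ± 0.24 (SE; limma, adjusted p = 1.82e-06). This difference exceeded that of 99.8% of all genes tested. Clec4n had 22.8, 25.1, 22.2, 26.6 and 28.4 FPKM in LPS+siAtg5, against 9.57, 34.5 and 32.2 FPKM in LPS+dNC. The LPS+dNC libraries bracketed all those of LPS+siAtg5, and the difference did not pass the test (log2 0.16 ± 0.24, adjusted p = 0.544; -0.15 after median-of-ratios scaling and -0.03 after quantile normalization). That value turned on LPS+dNC replicate 1: without it the difference was -0.40 (adjusted p = 0.000727). In the 6 LPS+CLA libraries Clec4n ran from 51.9 to 65.3 FPKM with a median of 59.2 FPKM, overlapping the LPS libraries (log2 -0.13 ± 0.24, adjusted p = 0.65). LPS+siAtg5 and LPS+dNC both sat below LPS alone, LPS+siAtg5 by a log2 difference of -1.34 (adjusted p = 4.97e-05) and LPS+dNC by -1.50 (adjusted p = 8.45e-05; -0.94 without LPS+dNC replicate 1).

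Clec4e encodes Mincle, which senses mycobacterial cord factor and ligands set free by dying cells. It had 947, 940.2, 896, 911 and 971 FPKM in LPS+Baf A1, against 513, 488 and 620.5 FPKM in LPS. The groups did not overlap, and the log2 difference was 0.79 ± 0.14 (SE; limma, adjusted p = 3.15e-05). The order was the opposite with Atg5 silenced. Clec4e had 207, 212, 213, 207 and 233 FPKM in LPS+siAtg5, against 697, 574 and 521 FPKM in LPS+dNC (log2 -1.46 ± 0.14, adjusted p = 1.57e-09). Every LPS+siAtg5 library lay below every other library of the series, and against LPS the log2 difference was -1.32 (adjusted p = 1.16e-08). LPS+dNC and LPS overlapped for this gene (log2 0.14 ± 0.15, adjusted p = 0.443; -0.10 after quantile normalization). In LPS+CLA, 5 of 6 libraries lay between 305 and 312 FPKM, below all LPS libraries, while LPS+CLA replicate 2 had 531 FPKM, inside their range. The log2 difference from LPS was -0.67 ± 0.13 (adjusted p = 0.00012), and -0.80 without that library (adjusted p = 3.4e-09).

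Clec4d encodes MCL, which pairs with Mincle at the cell surface, and its level moved less. It had 725, 722, 689.6, 705 and 704 FPKM in LPS+Baf A1, against 530.3, 522 and 580.4 FPKM in LPS (log2 0.38 ± 0.08 SE; limma, adjusted p = 0.000331). The groups did not overlap. It had 516, 533, 514, 514 and 533 FPKM in LPS+siAtg5, against 276, 381 and 428 FPKM in LPS+dNC, again apart (log2 0.55 ± 0.08, adjusted p = 1.73e-06; 0.23 after median-of-ratios scaling). LPS+siAtg5 overlapped LPS, with a log2 difference of -0.06 ± 0.08 (adjusted p = 0.508) that was -0.41 after median-of-ratios scaling (adjusted p = 7.34e-05) and 0.15 after quantile normalization. LPS+dNC lay below LPS by a log2 difference of -0.61 (adjusted p = 4.71e-06). In LPS+CLA it ran from 519.9 to 556 FPKM with a median of 535 FPKM, overlapping LPS (log2 -0.02 ± 0.08, adjusted p = 0.817).

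Set against each other in the same library, Clec4e and its neighbour Clec4d gave a ratio that a single scaling factor per library does not change. Quantile normalization can change it. The median ratio of Clec4e to Clec4d FPKM was 0.583 in LPS+CLA (0.565 to 0.956), 1.302 in LPS+Baf A1 (1.29 to 1.38), 0.403 in LPS+siAtg5 (0.398 to 0.438), 1.51 in LPS+dNC (1.22 to 2.52) and 0.968 in LPS (0.934 to 1.07). LPS+Baf A1 lay wholly above LPS and LPS+siAtg5 wholly below LPS+dNC. In LPS+CLA, 5 libraries lay below LPS and replicate 2 fell within its range. A ratio shows unequal change and does not say which gene changed.

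**Figure D3:**
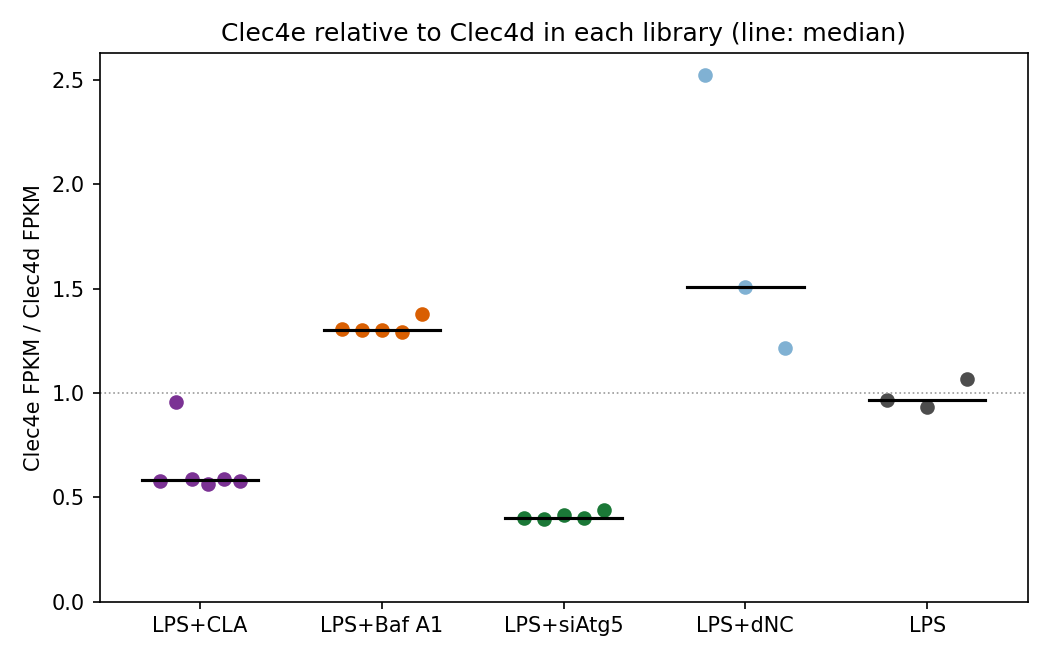
Ratio of Clec4e FPKM to Clec4d FPKM (vertical axis, no unit, from 0) in each library by group; points are libraries, black lines are group medians and the dotted line marks equal levels. The 5 LPS+siAtg5 libraries lie between 0.398 and 0.438, and the single high LPS+CLA point, at 0.956, is replicate 2.

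The 3 genes belong to a run of 8 related lectin genes on chromosome 6, the Dectin-2 cluster, whose other members include the inhibitory receptor gene Clec4a2 (DCIR). Clec4b1 and Clec4b2 stayed below 1 FPKM on average and were not tested. In LPS+Baf A1 against LPS, all 6 tested genes of the cluster were called, 3 higher (Clec4n, Clec4d and Clec4e) and 3 lower (Clec4a1, Clec4a2 and Clec4a3), where 32.7% and 25.1% of all genes were. Clec4a3 averaged 78.5 ± 3.28 FPKM in LPS+Baf A1 and 153 ± 8.58 FPKM in LPS (SD, n = 5 and 3), a log2 difference of -0.95 (limma, adjusted p = 1.16e-10). Clec4a2 averaged 106 ± 2.61 FPKM in LPS+Baf A1 and 181 ± 7.27 FPKM in LPS (log2 -0.76, adjusted p = 1.07e-07). The genes nearer the Clec4e end were called higher and those at the Clec4a1 end lower. The 3 called higher were also the activating receptors, so position and receptor kind cannot be told apart here. Neither was tested. With Atg5 silenced the cluster split otherwise, with 3 genes called higher and 2 lower than in LPS+dNC, where 59.6% and 21.6% of all genes were. Clec4a2 averaged 309 ± 9.87 FPKM in LPS+siAtg5, against 106 ± 9.49 FPKM in LPS+dNC (log2 1.54, adjusted p = 2.13e-13). Clec4a3 was called higher (log2 0.40, not called after median-of-ratios scaling) and Clec4a1 lower (log2 -0.44, not called after quantile normalization). In LPS+CLA against LPS, Clec4a2 was called higher (log2 0.40, adjusted p = 0.000216), and Clec4a1 (-0.31), Clec4a3 (-0.50) and Clec4e were called lower. Clec4a2 and Clec4b1 share 6.69% and 8.69% of their 50-base stretches with other genes, so a small part of their reads could have been assigned either way.

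**Figure D4:**
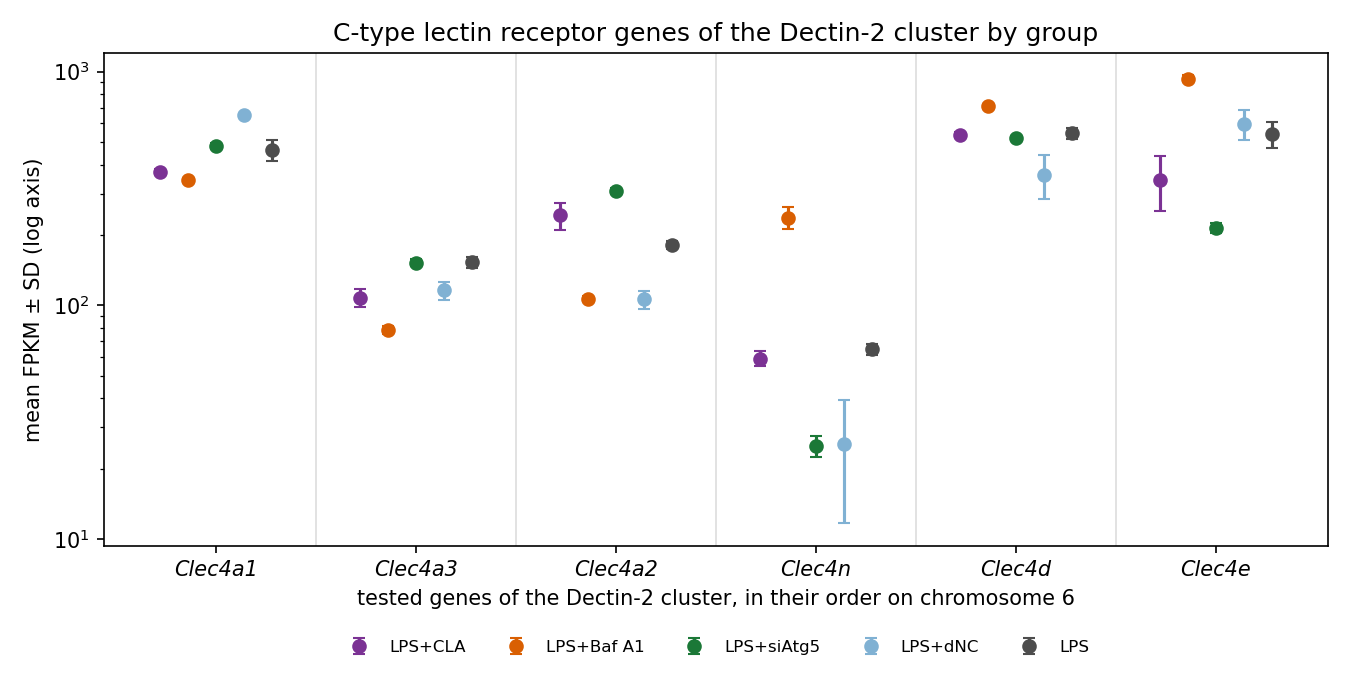
Mean FPKM with SD (log axis) of the 6 tested genes of the Dectin-2 cluster in their order on chromosome 6, by group. In LPS+Baf A1 (orange), Clec4n, Clec4d and Clec4e lie above LPS (grey), at 237, 709 and 933 FPKM, and the first 3 genes lie below it.

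Marco, a class A scavenger receptor for bacteria and particles, was the most abundant member in every group but LPS+dNC. It had 1192, 1166, 1223, 1212 and 1250.2 FPKM in LPS+siAtg5, against 196, 365 and 312 FPKM in LPS+dNC. The groups were far apart, with a ratio of means of 4.15 and a log2 difference of 2.10 ± 0.12 (SE; limma, adjusted p = 3.41e-13). The 3 LPS libraries, at 1096, 1048 and 1145 FPKM, stood beside LPS+siAtg5, and LPS+dNC was below LPS by a log2 difference of -1.95 ± 0.13 (adjusted p = 3.08e-11). LPS+siAtg5 against LPS did not pass the test, although all 5 libraries exceeded all 3 (log2 0.14 ± 0.12, adjusted p = 0.286; -0.21 after median-of-ratios scaling). Marco had 1276, 1259, 1202, 1252 and 1238 FPKM in LPS+Baf A1, also above every LPS library and not called (log2 0.18 ± 0.12, adjusted p = 0.197). In LPS+CLA it ran from 1024 to 1327 FPKM with a median of 1283 FPKM, and only replicate 2, at 1024 FPKM, did not exceed the LPS libraries (log2 0.18 ± 0.12, adjusted p = 0.176). With the 3 libraries that stand apart left out, an alternative chosen after seeing the data, these small differences were called. Against LPS they were 0.22 in LPS+Baf A1 (adjusted p = 0.000203), 0.27 in LPS+CLA (adjusted p = 1.47e-05) and 0.17 in LPS+siAtg5 (adjusted p = 0.0012). All 3 were also called with array weights (adjusted p = 0.00353, 0.000444 and 0.0137). With only the groups compared, LPS+Baf A1 (adjusted p = 0.00402) and LPS+siAtg5 (0.0164) were called and LPS+CLA was not. Without LPS+dNC replicate 1, LPS+Baf A1 (0.0184) and LPS+CLA (0.0149) were called. After quantile normalization LPS+CLA (0.0458) and LPS+siAtg5 (0.0265) were called. Each difference stayed uncalled in 28 of 32 alternatives.

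Msr1, the class A receptor for acetylated LDL, varied least of the tested members and was highest in LPS alone. It had 647, 615, 612, 603 and 623 FPKM in LPS+Baf A1, against 772, 774 and 753 FPKM in LPS, with no overlap (log2 -0.31 ± 0.06 SE; limma, adjusted p = 0.000325). In LPS+CLA it ran from 628 to 699 FPKM with a median of 650.2 FPKM, also below every LPS library (log2 -0.23 ± 0.06, adjusted p = 0.00271). It had 511, 496, 511, 499.6 and 497 FPKM in LPS+siAtg5, against 487, 563 and 681 FPKM in LPS+dNC. Those groups overlapped, and the small log2 difference of -0.18 ± 0.06 (adjusted p = 0.0128) depended on scaling and on 1 library: it was 0.21 after quantile normalization (adjusted p = 0.00861), -0.51 after median-of-ratios scaling, -0.30 without LPS+dNC replicate 1 and -0.06 without LPS+dNC replicate 3 (adjusted p = 0.295). Against LPS, LPS+siAtg5 was lower by a log2 difference of -0.61 (adjusted p = 1.8e-08) and LPS+dNC by -0.42 (adjusted p = 2.99e-05).

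Mrc1, the mannose receptor often used as a marker of border macrophages and of alternative activation, was low in all groups and highest in LPS alone. It had 5.23, 4.84, 5.35, 4.97 and 5.11 FPKM in LPS+Baf A1, against 14.7, 13.8 and 8.77 FPKM in LPS, with no overlap (log2 -1.11 ± 0.20 SE; limma, adjusted p = 7.75e-05). In LPS+CLA it ran from 2.15 to 5.90 FPKM with a median of 5.17 FPKM, again below every LPS library (log2 -1.21 ± 0.20, adjusted p = 1.46e-05). LPS+CLA and LPS+Baf A1 overlapped (log2 -0.10 ± 0.17, adjusted p = 0.635). Mrc1 had 6.23, 5.31, 5.99, 5.49 and 6.59 FPKM in LPS+siAtg5, against 0.70, 1.71 and 1.94 FPKM in LPS+dNC, with no overlap (log2 1.53 ± 0.20, adjusted p = 4.74e-07). Both lay below LPS, by log2 differences of -0.93 (adjusted p = 0.000306) and -2.46 (adjusted p = 5.25e-09). These values are low enough that the added 1 FPKM shrinks the differences. Mrc1 and Cd163 are on the list of 13 border macrophage and monocyte markers, which summed to 872 to 1055 FPKM in LPS+CLA, 924 to 958 FPKM in LPS+Baf A1, 835 to 894 FPKM in LPS+siAtg5, 1203 to 1419.5 FPKM in LPS+dNC and 1215 to 1239.5 FPKM in LPS. On that list Lyve1 and Cd163 had group means near 0. Pf4 averaged 244 FPKM in LPS+CLA, 209 FPKM in LPS+Baf A1, 20.7 FPKM in LPS+siAtg5, 38.5 FPKM in LPS+dNC and 97.7 FPKM in LPS. Folr2 and Cbr2 averaged 21.8 and 3.51 FPKM in LPS+dNC, against 9.88 and 0.64 FPKM in LPS, the other way from Pf4. In LPS+dNC against LPS, 3 of 10 tested genes were called higher and 3 lower, where 29% and 28.1% of all genes were. Ms4a7 and Siglec1, at 696 and 404 FPKM in LPS, made up most of the sums, which thus say little about Mrc1.

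Stab1, a scavenger receptor that clears matrix fragments and apoptotic cells, was lower in LPS+siAtg5 and LPS+dNC than in the other groups. It had 53.6, 55.0, 55.8, 51.2 and 63.0 FPKM in LPS+siAtg5, against 31.0, 44.8 and 36.9 FPKM in LPS+dNC. All 5 LPS+siAtg5 libraries exceeded all 3 of LPS+dNC (log2 0.57 ± 0.10 SE; limma, adjusted p = 2.14e-05; 0.25 after median-of-ratios scaling), and both groups lay below LPS, by log2 differences of -1.06 (adjusted p = 2.64e-09) and -1.63 (adjusted p = 3.14e-11). Stab1 had 101, 109, 106, 105 and 103 FPKM in LPS+Baf A1, against 132, 133 and 91.6 FPKM in LPS, and all 5 lay inside the LPS range (log2 -0.16 ± 0.10, adjusted p = 0.179). In LPS+CLA it ran from 93.4 to 102 FPKM with a median of 96.2 FPKM, also inside that range (log2 -0.27 ± 0.10, adjusted p = 0.018). The wide LPS range came from replicate 3. Without it the log2 difference was -0.34 in LPS+Baf A1 (adjusted p = 0.00216) and -0.45 in LPS+CLA (adjusted p = 9.04e-05), and without LPS replicate 1 or 2 the LPS+CLA call was lost (-0.19, adjusted p = 0.146, and -0.18, adjusted p = 0.154). In the annotation 1.09% of the exonic bases of Stab1 overlap Nt5dc2 on the opposite strand.

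Scarb1, which takes up cholesterol esters from HDL, was the member whose 5 groups all stood apart. It had 23.2, 23.1, 23.1, 22.6 and 23.6 FPKM in LPS+siAtg5, against 15.8, 15.1 and 13.5 FPKM in LPS+dNC (log2 0.61 ± 0.07 SE; limma, adjusted p = 5.83e-08; 0.30 after median-of-ratios scaling). In LPS+CLA it ran from 7.97 to 9.98 FPKM with a median of 9.10 FPKM, against 4.4, 4.22 and 4.91 FPKM in LPS, a ratio of means of 2.003 (log2 0.86 ± 0.07, adjusted p = 2.9e-10). It had 5.05, 6.12, 6.21, 5.41 and 6.21 FPKM in LPS+Baf A1, still above every LPS library (log2 0.30 ± 0.07, adjusted p = 0.000995). The order of the groups was thus LPS+siAtg5, LPS+dNC, LPS+CLA, LPS+Baf A1 and LPS, with no range overlapping the next. LPS+siAtg5 exceeded LPS by a log2 difference of 2.13 (adjusted p = 6.43e-17) and LPS+dNC exceeded it by 1.52 (adjusted p = 2.79e-13).

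Cd163 and Olr1 were too low for the test. Cd163 was listed at 0.00 to 0.06 FPKM over all 22 libraries, and at 0 in 4 of the 5 LPS+siAtg5 libraries. Olr1 had 0.77, 0.35, 0.56, 1.03 and 0.23 FPKM in LPS+Baf A1, against 0.13, 0.27 and 0.14 FPKM in LPS, and the groups overlapped. In a fit with no filter Olr1 was called higher in LPS+Baf A1 than in LPS (log2 0.41, adjusted p = 0.0355) and lower in LPS+CLA than in LPS+Baf A1 (log2 -0.38, adjusted p = 0.0189), and Cd163 was called in no comparison. The depth of the libraries is unknown, so how many reads stand behind such values cannot be said.

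The effect of bafilomycin A1 (LPS+Baf A1 minus LPS) was tested against that of Atg5 silencing (LPS+siAtg5 minus LPS+dNC) in the same model. Of the 8 members, 2 had a higher value under bafilomycin A1, where 20.4% of all genes did, and 4 a lower one, where 52.3% did; the median over all genes was -0.30. Of all genes called, 28.1% were higher as deposited, 44.5% after median-of-ratios scaling and 51.1% after quantile normalization. Clec4e differed by 2.26 ± 0.19 on the log2 scale (limma, adjusted p = 8.7e-10) and Clec4n by 1.69 ± 0.34 (adjusted p = 0.000202). Mrc1 differed by -2.64 ± 0.29 (adjusted p = 4.4e-08), Marco by -1.91 ± 0.17 (adjusted p = 1.42e-09), Stab1 by -0.73 ± 0.14 (adjusted p = 9.34e-05) and Scarb1 by -0.31 ± 0.10 (adjusted p = 0.00931). For Scarb1 the difference was close to the median of all genes and was not called after median-of-ratios scaling (-0.05) or quantile normalization (-0.15). Clec4d (-0.17 ± 0.11, adjusted p = 0.191) and Msr1 (-0.12 ± 0.09, adjusted p = 0.233) did not pass. After quantile normalization both did, at -0.56 and -0.56, while after median-of-ratios scaling they were 0.10 and 0.14 and did not. Each of these differences includes the level of LPS+dNC, which was called lower than LPS for Clec4n, Clec4d, Marco, Msr1, Mrc1 and Stab1 and higher for Scarb1, as given above.

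Other receptors of the same families gave a mixed picture. The scavenger receptor list used here also holds Tspo, which encodes a mitochondrial protein and not a scavenger receptor. Tspo was called higher in LPS+Baf A1 (log2 0.54) and LPS+CLA (0.26) than in LPS, and lower in LPS+siAtg5 than in LPS+dNC (-0.45). Of 14 tested genes on a list of 18 other scavenger receptors, 3 were called higher and 2 lower in LPS+Baf A1 than in LPS, where 32.7% and 25.1% of all genes were. In LPS+siAtg5 against LPS+dNC 9 were higher and 2 lower, where 59.6% and 21.6% were, and in LPS+CLA against LPS 3 were higher and 3 lower, where 40.4% and 22.6% were. The higher counts in LPS+Baf A1 and LPS+CLA were below the share of all genes. That in LPS+siAtg5 was near it with Scara3, Megf10 and Ssc5d counted. Scara3, Megf10 and Ssc5d, among those higher in LPS+siAtg5, averaged 2.17, 1.2 and 1.26 FPKM there and below 1 FPKM in every other group. They passed the filter only through LPS+siAtg5, so their calls as higher there carry no weight. Scarf2, among those lower in LPS+siAtg5, averaged 1.43 FPKM in LPS+dNC and below 1 FPKM in every other group. It passed the filter only through LPS+dNC, so its call as lower carries no weight either. Cd14, the LPS co-receptor, averaged 1269 ± 45.9 FPKM in LPS+Baf A1 and 464 ± 53.2 FPKM in LPS (log2 1.45; limma, adjusted p = 5.84e-12), and 781 ± 94.2 FPKM in LPS+CLA (log2 0.75, adjusted p = 8.9e-08). Cd36, a receptor for oxidised LDL and fatty acids, averaged 402 ± 18.7 FPKM in LPS+siAtg5, against 63.1 ± 15.8 FPKM in LPS+dNC (log2 2.69, adjusted p = 1.79e-12). In LPS alone it averaged 201 FPKM. Against LPS, Cd36 was lower in LPS+dNC (log2 -1.69, adjusted p = 6.13e-08) and higher in LPS+siAtg5 (log2 0.996, adjusted p = 9.83e-06). It also rose in LPS+CLA against LPS (log2 0.79, adjusted p = 0.000156). Cd68, a late endosomal glycoprotein, fell in LPS+CLA to 251 ± 16.04 FPKM, against 505 ± 88.1 FPKM in LPS (log2 -0.996, adjusted p = 1.03e-09). Of 10 tested genes among 23 other C-type lectin receptors in the table, 2 were called higher and 5 lower in LPS+Baf A1, where 32.7% and 25.1% of all genes were, 7 and 2 in LPS+siAtg5, where 59.6% and 21.6% of all genes were, and 3 and 4 in LPS+CLA, where 40.4% and 22.6% were. Clec2d, a ligand of an inhibitory natural killer receptor, was called lower in all 3 comparisons (log2 -0.74, -1.67 and -0.75).

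Of 18 genes for the Syk and Card9 pathway used by the activating lectins, 3 were called higher and 11 lower in LPS+siAtg5 than in LPS+dNC, where 59.6% and 21.6% of all genes were. After median-of-ratios scaling 1 was higher and 16 lower, where 42.4% and 36.0% of all genes were, and after quantile normalization 4 and 13, where 38.0% and 39.4% were. The list's median log2 difference was -0.20, against 0.34 over all genes. Malt1, the paracaspase downstream of Card9, averaged 7.04 ± 0.445 FPKM in LPS+siAtg5, against 45.6 ± 6.71 FPKM in LPS+dNC (log2 -2.53, limma, adjusted p = 7.69e-15). In LPS alone Malt1 averaged 26.05 FPKM. Fcer1g, whose product carries the signal of Clec4n and Clec4e, was also called lower (log2 -1.27, adjusted p = 1.52e-14). It averaged 2109 FPKM in LPS+siAtg5, 5103 FPKM in LPS+dNC and 2334 FPKM in LPS. Against LPS, LPS+dNC was higher by a log2 difference of 1.13 (adjusted p = 3.39e-12) and LPS+siAtg5 differed by -0.14 (adjusted p = 0.0435). In LPS+CLA against LPS, 5 of the 18 were called higher and 7 lower, where 40.4% and 22.6% of all genes were, with Malt1 among the lower (log2 -1.07, adjusted p = 2.68e-08). After median-of-ratios scaling 2 were higher and 10 lower, where 30.4% and 31.2% of all genes were. After quantile normalization 3 were higher and 9 lower, where 33.4% and 28.4% were. In LPS+Baf A1 against LPS, 6 were called higher, with Prkcd (the kinase PKC delta) at a log2 difference of 0.48, and 4 lower, with Vav3 at -0.77. Those shares were near the 32.7% and 25.1% of all genes.

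Genes for lipoprotein and sterol handling, the cargo of Scarb1, Msr1 and Olr1, moved in both directions. Of 16 tested, 12 were called higher and 3 lower in LPS+siAtg5 than in LPS+dNC, where 59.6% and 21.6% of all genes were. In LPS+CLA against LPS 7 were higher and 8 lower, where 40.4% and 22.6% were, and in LPS+Baf A1 against LPS 4 were higher and 7 lower, where 32.7% and 25.1% were. Abcg1, a cholesterol exporter to HDL, averaged 17.5 ± 2.21 FPKM in LPS+siAtg5, against 1.15 ± 0.456 FPKM in LPS+dNC (log2 3.12, adjusted p = 1.11e-15). Both lay below the 66.5 ± 10.1 FPKM of LPS alone, by log2 differences of -1.86 (adjusted p = 1.42e-11) and -4.99 (adjusted p = 8.13e-18). Abcg1 also fell in LPS+CLA against LPS (log2 -1.18, adjusted p = 2.51e-08). Lpl, the lipoprotein lipase, rose in LPS+CLA (log2 1.64, adjusted p = 2.73e-09). Apoe fell in LPS+Baf A1 to 3660 ± 63.2 FPKM, against 6917 ± 285 FPKM in LPS (log2 -0.92, adjusted p = 1.9e-08). Of 10 tested genes for haemoglobin uptake and haem breakdown, the cargo of Cd163, 6 were called higher and 1 lower in LPS+Baf A1, where 32.7% and 25.1% of all genes were. The counts were 6 and 3 in LPS+siAtg5 and 4 and 1 in LPS+CLA, and the shares called higher there were near the 59.6% and 40.4% of all genes. Hp, which encodes haptoglobin, averaged 56.8 ± 2.51 FPKM in LPS+Baf A1 and 10.99 ± 1.02 FPKM in LPS (log2 2.27, adjusted p = 4.64e-10). A list of 16 genes held clathrin, endocytic adaptors and Rab5a, and also Rab7 of late endosomes, the lysosomal protease Lgmn and the surface proteases Adam10 and Adam17. Of the 16, 12 were called higher and 2 lower in LPS+CLA than in LPS, where 40.4% and 22.6% of all genes were (8 and 2 after median-of-ratios scaling, where 30.4% and 31.2% were), led by Ap2s1, a subunit of the AP-2 adaptor (log2 0.89, adjusted p = 2.1e-12). The higher ones included Lgmn (log2 0.21), Adam10 (0.26) and Adam17 (0.18), and the lower ones Rab7 (-0.09). In the other comparisons 6 were called higher and 5 lower in LPS+Baf A1, where 32.7% and 25.1% of all genes were, and 12 higher and 4 lower in LPS+siAtg5, where 59.6% and 21.6% were. Gulp1, among those higher in LPS+siAtg5, averaged 1.09 FPKM there and below 1 FPKM in every other group. It passed the filter only through LPS+siAtg5, so its call there carries no weight.

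The genes whose pattern over the 22 libraries came nearest to that of each member were sought among 7092 tested genes, by the root mean square difference of log2(FPKM + 1) after subtracting each gene's mean. For Clec4n they were Mmp12 (0.44), Cd14 (0.56) and Acsl1 (0.59), set against a spread of 1.26 for Clec4n itself. For Clec4e they were Acod1 (0.25), Foxp4 (0.31) and Slc2a6 (0.32), and for Mrc1 they were Sgk1 (0.33), Tlr4 (0.34) and Mycbp2 (0.38). Scarb1 lay nearest to Msmo1 (0.22) and Idi1 (0.24), which encode enzymes of cholesterol synthesis, and to Cebpa (0.25). Marco lay nearest to Maged2 (0.16), Prpf19 (0.16) and Lyz2 (0.20). Among the members themselves the closest pair was Msr1 and Clec4d (0.31). Both varied little themselves (spreads of 0.21 and 0.31), so this distance does not show a shared pattern. These distances are descriptions over libraries that share groups and scaling.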

How the data were processed

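The authors deposited 1 FPKM value per gene symbol and library, with 2 decimals, per the file headers of 19 columns. The unit of the 3 LPS+dNC columns is unnamed and was taken as FPKM because their values resemble the rest. The submitters' processing notes list CASAVA 1.7, fastp 0.18.0, Bowtie2 2.2.8, HISAT2 and StringTie 1.3.1 but no order, build or annotation. Sums of FPKM ran from 469750 to 575125. Without counts the depth is unknown, and no counting interval was computed. Libraries were grouped by title.

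Values were analysed as log2(FPKM + 1), which understates changes of low genes. The filter kept 11070 genes that reached 1 FPKM in 3 or more libraries. One model of 5 group means over all 22 libraries was fitted with limma 3.58.1 in R 4.3.3 (17 residual degrees of freedom, robust fit with a mean-variance trend), tested on simulated data first, with Benjamini-Hochberg adjustment over all genes and calls at an adjusted p under 0.05. Plin2 had 2 lines and the first was used. The members, gene lists and markers were chosen with earlier results of these data known. The rule for named genes was every member, Atg5, all measured genes of the Dectin-2 cluster, up to 3 genes per list and direction with the smallest adjusted p in the 3 comparisons of the design text, and the 3 genes nearest each member in pattern. One gene that this rule names is not reported here. In all, 32 alternatives of pseudocount, filter, scaling, model and libraries were run. Promoters came from RefSeq and gene positions from GENCODE vM21.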

Additional observations from a re-analysis of the deposited data

Results flagged for a closer look

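In LPS+CLA, replicate 2 lay apart from the other 5 libraries for 3 members: Clec4e at 531.37 FPKM (the others 305 to 312), Marco at 1024.3 FPKM and Mrc1 at 2.15 FPKM. Single libraries also lay apart for Clec4e in LPS+siAtg5 replicate 5 (233.44 FPKM), Olr1 in LPS+CLA replicate 1 (0.65 FPKM) and LPS+siAtg5 replicate 5 (0.76 FPKM), and Cd163 in LPS+siAtg5 replicate 3 (0.03 FPKM, the only 1 of 5 above 0). In all, 30 sets of 4 to 10 libraries were checked and 7 held such a library; chance alone marks about 1 in 20.

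The effect of bafilomycin A1 differed from that of Atg5 silencing by a limma interaction test for 6 of the 8 members tested. Of these, 2 were higher under bafilomycin A1, where 20.4% of all genes were, and 4 lower, where 52.3% were. The count was thus near the share of all genes. The log2 differences between the effects were 2.26 for Clec4e, 1.69 for Clec4n, -1.91 for Marco, -2.64 for Mrc1, -0.73 for Stab1 and -0.31 for Scarb1. The Scarb1 value was close to the median of all genes, -0.30, and was not called after median-of-ratios scaling or quantile normalization. The astrocyte markers that were high in LPS+siAtg5 and S100a8, high in LPS+dNC, moved with the same groups; their part was not tested.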

How the results depend on the processing

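Over 32 alternatives, 1734 of 1792 values of a member's difference kept their direction and their side of the threshold, 6 lost the call, 26 gained it and 4 changed direction with a call under one of the settings. A further 22 values, in 10 pairs of a member and a comparison, changed sign without passing the test either way. Msr1 in LPS+siAtg5 against LPS+dNC changed direction after quantile normalization (0.21). Clec4n in the same comparison did so with array weights (-0.36), with the 3 libraries that stand apart left out (-0.40, chosen after seeing the data) and without LPS+dNC replicate 1, with a range of -0.40 to 0.47 over libraries left out in turn. Tspo, lower in the same comparison, was at 0.024 after quantile normalization.

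The count of members called lower in LPS+siAtg5 against LPS+dNC was 1 after quantile normalization and with only the groups compared, and 1 to 3 over libraries left out in turn. The count called higher in LPS+CLA against LPS was 2 after quantile normalization, with array weights and with the 3 libraries left out, and 1 to 2 over libraries left out in turn. It was 2 in LPS+siAtg5 against LPS under these 3 settings and with only the groups compared, and 2 in LPS+dNC against LPS with array weights or the 3 libraries left out. In each case the added member was Marco or, for LPS+dNC, Clec4e.

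Scaling moved the counts over all genes. In LPS+siAtg5 against LPS+dNC, 6594 genes were higher and 2394 lower as deposited; 3981 were lower after median-of-ratios scaling, and 4206 were higher and 4362 lower after quantile normalization. Against LPS, LPS+siAtg5 had 3963 higher and 3833 lower after median-of-ratios scaling, and 3808 and 4221 after quantile normalization. For the difference of effects, 3438 were higher after median-of-ratios scaling, and 3859 higher and 3692 lower after quantile normalization. The cause was not tested.

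No pairing by replicate number was seen: same-numbered libraries correlated at -0.131 to 0.155 in their deviations from group means, and only a number is shared. With so few libraries per group, this check cannot exclude pairing. With the replicate number as a block, 4 members were higher and 2 lower in LPS+Baf A1 against LPS, with 3369 and 2662 genes, and no member's call changed. Without counts, the precision of low values such as those of Cd163 and Olr1 cannot be stated.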
